A study of Mus musculus with 6 samples.

Results

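The genes examined were those of the high mobility group (HMG) chromatin proteins, measured in B16-F1, a melanoma cell line from C57BL/6J mice. The listed symbols were Hmga1, Hmga2, Hmgb1, Hmgb2, Hmgb3, Hmgn1, Hmgn2 and Hmgn3, and a probe set was a member when the platform annotation gave it exactly 1 of these symbols. Of the 8 genes 5 had such a probe set, and they had 14 in all: 4 for Hmga2, 3 for Hmgb2, 1 for Hmgb3, 4 for Hmgn1 and 2 for Hmgn3. The whole annotation held 34945 probe sets with 1 symbol, for 18193 genes. Hmgb1 appeared only in 5 probe sets and Hmgn2 only in 1 probe set that carry symbols of other genes too, and these genes and Hmga1 were not analysed here. The genes were chosen by the shRNA comparisons of these same arrays, in which Hmga2 differed between lines, and Hmga2 was set against the other families for that reason. The shRNA comparisons of the members are therefore given as descriptions. Where members past a threshold are counted in them, the share or number of all probe sets past it stands beside the count. Nothing is read from such a count.

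The arrays compared 3 stable lines, each carrying a lentiviral short hairpin RNA (shRNA) against macroH2A1, against macroH2A2 or, as control, against GFP, and each was grown in DMEM with fetal bovine serum. MacroH2A proteins are histone H2A variants with a large additional macro domain. Each line had 2 arrays that are described as independent biological replicates, so 6 one-colour Affymetrix arrays were used and their number limits the precision of every value. Neither the hairpin sequences nor whether a line grew from 1 clone could be taken from the sources used here. All 6 arrays had been scaled to the same 2% trimmed mean of 150.0, and their median signal lay between 15.1 and 24.6. Macroh2a1 read 444.2 and 319.1 on the macroH2A1 shRNA arrays, against 1212.7 and 1262.4 on the control arrays. On the macroH2A2 shRNA arrays Macroh2a1 read 1271.2 and 1170.5. This set them apart from the macroH2A1 shRNA arrays but not from the control arrays. Macroh2a2 read 11.9 and 8.3 on the macroH2A2 shRNA arrays and 6.1 and 7.5 on the control arrays. These signals were too dim for the arrays to check that label. Every direction below against control for the macroH2A2 shRNA line therefore rests on the label alone. All 10 melanocyte markers on the array were above the signal filter, and their summed signal ranged from 39384.2 to 46573.9 on the macroH2A1 shRNA arrays, from 35993.6 to 41251.5 on the macroH2A2 shRNA arrays and from 36728.8 to 37297.1 on the control arrays. Among markers of endothelial cells, keratinocytes, fibroblasts and leukocytes the highest value on any array was 82.9, for Pdgfra in the control line.

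HMG proteins are small abundant nonhistone proteins that bind chromatin, in 3 families. HMGA proteins carry AT-hooks that bind the minor groove of AT-rich DNA, and HMGA2 is made mainly in the embryo and again in many tumours, where its mRNA is a well known target of the let-7 microRNAs. HMGB proteins carry HMG boxes that bend DNA, and HMGN proteins bind the nucleosome itself and compete with linker histone H1.

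The start regions of 1 gene per family are shown, because the members differ in what lies before their start sites. They are the 250 bases before the annotated start, from RefSeq on GRCm38.p6, which served only for these sequences, since the array annotation named no genome build. RefSeq start regions matched 4 of the 5 measured genes. Capitals mark CTCTCT or its complement AGAGAG in Hmga2, CCAAT or ATTGG in Hmgb2, and GGGCGG or CCGCCC in Hmgn1.
Hmga2, chr10:120476470-120476719, minus strand: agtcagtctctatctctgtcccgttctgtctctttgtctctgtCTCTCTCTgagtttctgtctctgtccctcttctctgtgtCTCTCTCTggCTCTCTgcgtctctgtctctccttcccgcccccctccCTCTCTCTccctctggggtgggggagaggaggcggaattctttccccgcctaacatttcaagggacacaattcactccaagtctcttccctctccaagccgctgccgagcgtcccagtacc
Hmgb2, chr8:57511593-57511842, plus strand: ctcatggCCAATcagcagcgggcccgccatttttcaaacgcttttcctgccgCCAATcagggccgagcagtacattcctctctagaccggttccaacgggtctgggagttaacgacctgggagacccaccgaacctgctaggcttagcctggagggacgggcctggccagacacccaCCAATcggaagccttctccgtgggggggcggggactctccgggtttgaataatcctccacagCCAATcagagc
Hmgn1, chr16:96127726-96127975, minus strand: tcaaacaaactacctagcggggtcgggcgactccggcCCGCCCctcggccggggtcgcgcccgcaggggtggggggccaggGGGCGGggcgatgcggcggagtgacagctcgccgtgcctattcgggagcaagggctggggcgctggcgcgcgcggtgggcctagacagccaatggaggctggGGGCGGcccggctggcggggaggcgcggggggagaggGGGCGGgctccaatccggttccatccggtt

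Counted on both strands with overlapping matches, the Hmga2 window held CTCTCT 7 times, CCAAT 0 times and GGGCGG 1 time. The Hmgb2 window held them 1, 4 and 1 times, the Hmgb3 window 0, 3 and 1 times, and the Hmgn1 window 0, 2 and 4 times. Among all 32851 start regions of the same length, 23.4% held CTCTCT, 33.8% held CCAAT and 32.7% held GGGCGG at least once. At least 4 matches were held by 1.01%, 0.84% and 4.09%. The motif marked in each window was chosen per gene. The Hmga2 window was the only one of the 4 without CCAAT. Its GC content was 56.4%, against 60.4% for Hmgb2, 58.8% for Hmgb3, 76% for Hmgn1 and a median of 52.4% over all start regions. A match of these letters is a description and not a binding site.

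Hmga2, the only HMGA gene measured, had a lower signal in the macroH2A2 shRNA line than in the control line on each of its 3 bright probe sets, while no tested HMGB or HMGN probe set differed from control by more than 0.24 log2 units on average in either line. Its brightest probe set, 1450780_s_at, read 177.3 and 277.8 on the macroH2A1 shRNA arrays, 129.3 and 94.3 on the macroH2A2 shRNA arrays, and 268.6 and 219.0 on the control arrays. The macroH2A2 shRNA arrays were the lowest ones and overlapped neither other group, and the macroH2A1 shRNA arrays lay on either side of the control arrays. The suffix _s_at marks a probe set whose probes are shared by several transcripts. Its mean was 227.6 ± 71.1 for macroH2A1 shRNA, 111.8 ± 24.8 for macroH2A2 shRNA and 243.8 ± 35.1 for control (SD, n = 2 arrays each). In RNA of a whole culture, fewer cells with Hmga2 and less Hmga2 RNA per cell cannot be told apart.

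The second probe set of Hmga2, 1422851_at, read 147.8 and 151.9 on the macroH2A1 shRNA arrays, 88.5 and 61.8 on the macroH2A2 shRNA arrays, and 191.3 and 195.1 on the control arrays. Here the 3 lines were fully separated, with macroH2A2 shRNA lowest, macroH2A1 shRNA between and control highest. The next, 1450781_at, gave the same order with no overlap, at 129.3 and 142.0 on the macroH2A1 shRNA arrays, 86.9 and 40.2 on the macroH2A2 shRNA arrays, and 164.0 and 177.2 on the control arrays. The last, 1446196_at, was dim, at 13.7 and 9.2 on the macroH2A1 shRNA arrays, 17.4 and 9.7 on the macroH2A2 shRNA arrays, and 21.1 and 6.0 on the control arrays. Its groups overlapped in every pairing, and its mean of 12.9 lay just above the filter of 10.4 signal units, so it carried little information on Hmga2.

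**Figure D1:**
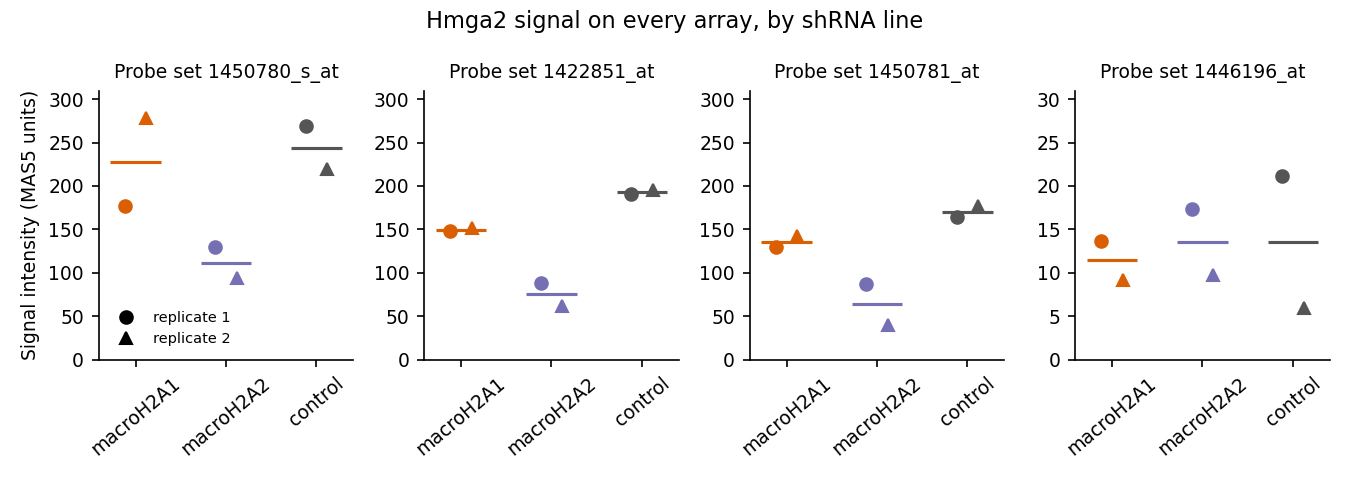
Signal intensity (linear axis from 0) of the 4 Hmga2 probe sets on each array, with circles for replicate 1, triangles for replicate 2 and bars for the mean of 2 arrays. In the first 3 panels the macroH2A2 shRNA arrays, at 129.3 or below, lie under both control arrays, and the dim probe set at the right, on its own axis, shows no separation.

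Differences between lines were computed on log2(signal + 16), a scale that understates changes of dim probe sets, and fitted with limma over all arrays. For macroH2A2 shRNA minus control the 3 bright Hmga2 probe sets had log2 fold changes of -1.03 (SE 0.25), -1.21 (SE 0.20) and -1.29 (SE 0.28), which is 2.04-fold to 2.45-fold lower. The brightest differed by -0.97 between the replicate 1 arrays and by -1.09 between the replicate 2 arrays, the second by -0.99 and -1.44, and the third by -0.81 and -1.78. All 6 of these differences were negative. The dim probe set had a value of 0.04 (SE 0.32) and did not share the direction.

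A marker of another cell type was also lower in that line. Pdgfra, a growth factor receptor of fibroblasts, read 32.5 and 24.4 on the macroH2A1 shRNA arrays, 25.6 and 25.2 on the macroH2A2 shRNA arrays, and 82.9 and 52.4 on the control arrays. Both macroH2A shRNA lines lay below the control arrays without overlap, with log2 fold changes of -0.89 (SE 0.25) for macroH2A1 shRNA and -0.99 (SE 0.25) for macroH2A2 shRNA. Of the 9 fibroblast markers on the array 3 passed the filter, and of these Col1a2, a collagen chain, had 0.46 and 0.27 (SE 0.20), and Acta2, smooth muscle actin, had -0.46 and -0.28 (SE 0.39). The other fibroblast markers, Col1a1, Col3a1, Pdgfrb, Dcn, Lum and Thy1, were at or below 17.0 on all arrays. The summed signal of the list ranged from 118.6 to 175.2 on the macroH2A1 shRNA arrays, from 125.4 to 133.2 on the macroH2A2 shRNA arrays and from 139.2 to 213.2 on the control arrays. Its part in the Hmga2 difference was not tested.

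For macroH2A1 shRNA minus control the same 3 probe sets had log2 fold changes of -0.12 (SE 0.25), -0.34 (SE 0.20) and -0.30 (SE 0.28). The brightest differed by -0.56 between the replicate 1 arrays and 0.32 between the replicate 2 arrays, so its sign rested on single arrays: it was 0.18 without macroH2A1 shRNA replicate 1 and 0.02 without control shRNA replicate 1. The other bright probe sets lay between -0.34 and -0.29 in both replicates. For macroH2A2 shRNA minus macroH2A1 shRNA the 3 values were -0.91, -0.88 and -0.995 (SE 0.25, 0.20 and 0.28), with no overlap between those lines.

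Of the 14 member probe sets 13 passed the filter, and 0 of the 13 had a limma adjusted p under 0.05 in any of the 3 shRNA comparisons, against 0% of all 27025 tested probe sets in each. At an unadjusted p under 0.05 there were 1189 probe sets (4.4%) for macroH2A1 shRNA minus control, 1075 (3.98%) for macroH2A2 shRNA minus control and 739 for macroH2A2 shRNA minus macroH2A1 shRNA, and with the replicate number as a block 2388 (8.84%), 2426 (8.98%) and 1711. With replicate number added as a block, 1 of 13 passed for macroH2A2 shRNA minus control, namely 1422851_at of Hmga2, against 0.144% of all tested probe sets (0.0851% lower and 0.0592% higher). In that fit 0 of 13 passed for macroH2A1 shRNA minus control, against 0.192% (0.107% lower and 0.0851% higher), and 0 for macroH2A2 shRNA minus macroH2A1 shRNA, against 0.0037% (0% lower and 0.0037% higher). The members were listed with this comparison known, so nothing is read from that count. Leaving out 1 array in the fit without the block, the brightest Hmga2 probe set had -1.23 to -0.83 log2 units for macroH2A2 shRNA minus control.

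The HMGB genes showed no separation of the lines. Hmgb2, an HMG-box protein abundant in dividing cells, read 3064.7 and 1697.1 on the macroH2A1 shRNA arrays, 3080.1 and 1744.7 on the macroH2A2 shRNA arrays, and 2894.4 and 2442.9 on the control arrays on its brightest probe set, 1437313_x_at. Both control arrays lay inside the range of either other line. The suffix _x_at marks probes that can also bind other transcripts. The probe set 1452534_a_at of the same gene read 2045.4 and 1874.9 on the macroH2A1 shRNA arrays, 2195.4 and 1677.7 on the macroH2A2 shRNA arrays, and 2024.3 and 1941.7 on the control arrays, again with full overlap. The dimmest, 1438307_at, read 103.8 and 105.4 on the macroH2A1 shRNA arrays, 120.3 and 73.3 on the macroH2A2 shRNA arrays, and 122.9 and 93.2 on the control arrays, and its lines overlapped as well. The log2 fold changes of the 3 Hmgb2 probe sets lay between -0.22 and -0.02 for macroH2A1 shRNA and between -0.20 and -0.05 for macroH2A2 shRNA, with SE from 0.15 to 0.32.

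Hmgb3, the third HMG-box family member and X-linked, read 1021.4 and 900.4 on the macroH2A1 shRNA arrays, 1122.2 and 924.0 on the macroH2A2 shRNA arrays, and 1030.5 and 952.5 on the control arrays. The ranges overlapped in each pairing, and the log2 fold changes were -0.05 and 0.04 (SE 0.15 each) for macroH2A1 and macroH2A2 shRNA against control.

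Hmgn3 had a slightly higher mean in both macroH2A shRNA lines than in the control line, and so did Hmgn1 except after quantile normalization, which turned its sign. Hmgn3 on its brightest probe set, 1434875_a_at, read 2780.9 and 2614.1 on the macroH2A1 shRNA arrays, 2797.2 and 2424.0 on the macroH2A2 shRNA arrays, and 2369.0 and 2299.6 on the control arrays. Both macroH2A shRNA lines lay above the control arrays without overlap. The probe set 1431777_a_at of Hmgn3 did the same, at 1164.1 and 1273.0 on the macroH2A1 shRNA arrays, 1221.8 and 1131.7 on the macroH2A2 shRNA arrays, and 1023.9 and 1034.6 on the control arrays. Against control, the fitted differences were 0.21 (SE 0.12) and 0.24 (SE 0.12) log2 units for macroH2A1 shRNA, and 0.16 (SE 0.12) and 0.19 (SE 0.12) for macroH2A2 shRNA, up to 1.18-fold.

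Hmgn1, which loosens nucleosome packing, read 6912.4 and 6897.4 on the macroH2A1 shRNA arrays, 6995.6 and 6529.5 on the macroH2A2 shRNA arrays, and 6221.1 and 6588.4 on the control arrays on 1438940_x_at. The macroH2A1 shRNA arrays were above the control arrays, and 1 macroH2A2 shRNA array was not. The probe set 1455897_x_at read 5732.7 and 5935.9 on the macroH2A1 shRNA arrays, 6023.5 and 5585.7 on the macroH2A2 shRNA arrays, and 5050.8 and 5335.7 on the control arrays, which were the lowest. On 1422495_a_at the values were 4724.7 and 5514.7 for macroH2A1 shRNA, 4832.3 and 5052.9 for macroH2A2 shRNA, and 4529.6 and 4889.6 for control, with overlap in both pairings. The 3 bright Hmgn1 probe sets had log2 fold changes from 0.11 to 0.17 for macroH2A1 shRNA and from 0.07 to 0.16 for macroH2A2 shRNA (SE 0.09 to 0.11), but the brightest turned to -0.10 and -0.01 after quantile normalization. The remaining Hmgn1 probe set, 1422496_at, stayed between 0.4 and 9.8 on all arrays, below the filter, and was not tested.

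**Figure D2:**
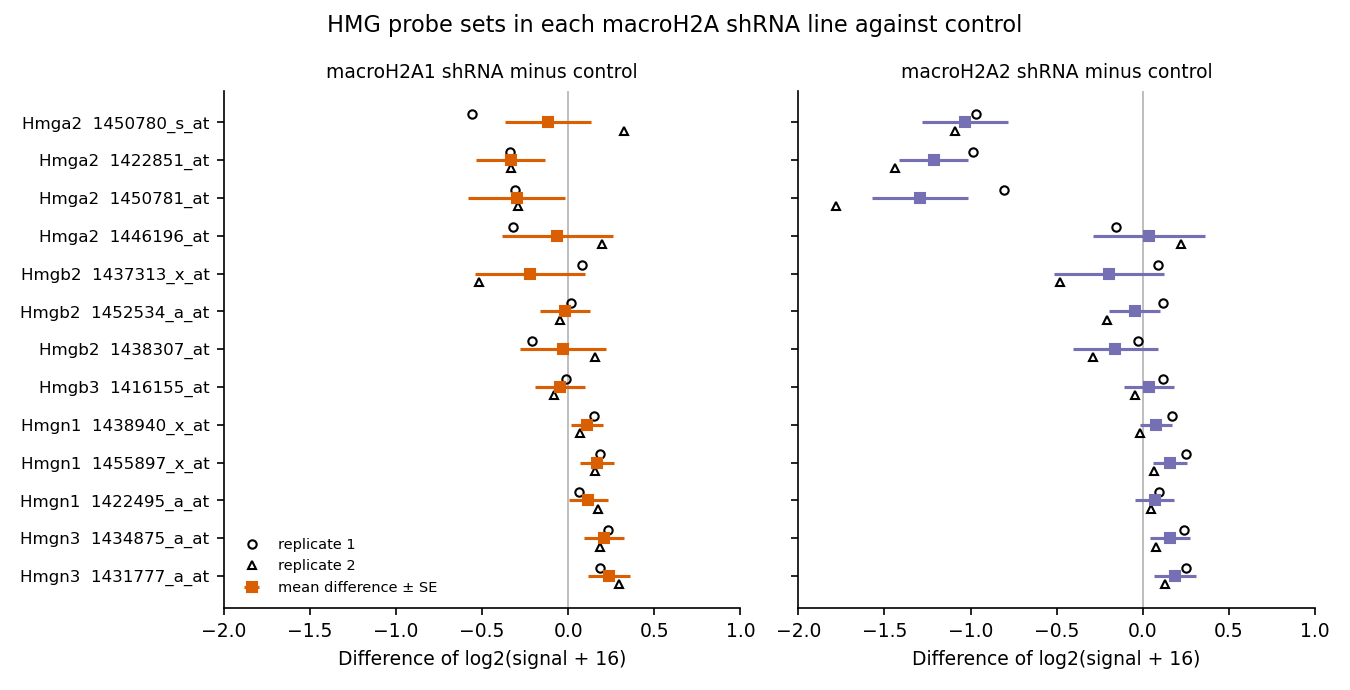
Difference of log2(signal + 16) from control for the 13 member probe sets that passed the filter, macroH2A1 shRNA at the left and macroH2A2 shRNA at the right, with squares and bars for the mean difference ± SE from limma (2 arrays a group) and open symbols for the difference within replicate 1 (circles) and replicate 2 (triangles). Only the 3 bright Hmga2 probe sets in the right panel lie beyond -1 on average, from -1.29 to -1.03, and no HMGB or HMGN mean is beyond 0.24 in either direction.

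Counted over the 13 tested probe sets, the arrays did not overlap between macroH2A1 shRNA and control for 6 (2 lower and 4 higher), against 27.9% of all tested probe sets (14.9% lower and 13% higher). For macroH2A2 shRNA and control they did not overlap for 6 (3 lower and 3 higher), against 29.2% (16.2% lower and 13% higher). For macroH2A2 shRNA and macroH2A1 shRNA the count was 3, all lower, against 28% (14.6% lower and 13.3% higher). All lower ones in the 3 comparisons were Hmga2 probe sets, and all higher ones were HMGN probe sets. By sign alone, 8 of 13 were lower and 5 higher for macroH2A1 shRNA minus control (55.6% and 44.4% of all tested probe sets), 6 lower and 7 higher for macroH2A2 shRNA minus control (55.7% and 44.3%), and 10 lower and 3 higher for macroH2A2 shRNA minus macroH2A1 shRNA (51.1% and 48.9%). These comparisons share their arrays pairwise, and probe sets of 1 gene measure the same RNA.

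Set against the other families array by array, Hmga2 stood apart mainly in the macroH2A2 shRNA line. The measure was log2(signal + 16) of the brightest Hmga2 probe set minus the mean of the brightest probe sets of Hmgb2, Hmgb3, Hmgn1 and Hmgn3 on the same array, compared between lines. For macroH2A2 shRNA minus control it was -1.05, made of -1.03 for Hmga2 and 0.02 for the others, with -1.12 in replicate 1 and -0.98 in replicate 2. For macroH2A1 shRNA minus control it was -0.13, with -0.67 in replicate 1 and 0.41 in replicate 2, so the replicates disagreed in sign. For macroH2A2 shRNA minus macroH2A1 shRNA it was -0.92, with -0.45 and -1.39. As Hmga2 was picked for this contrast, these values have no test.

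**Figure D3:**
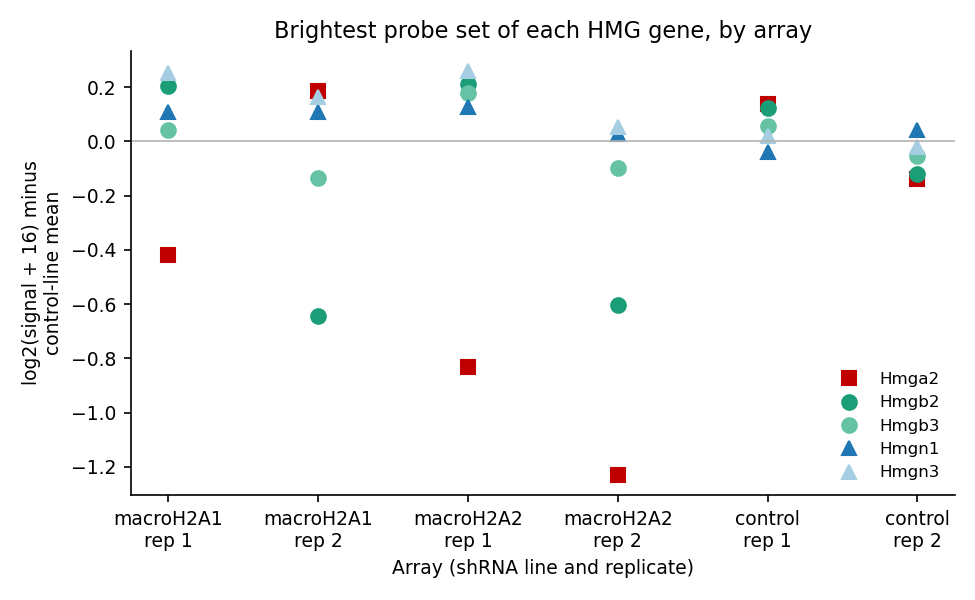
The brightest probe set of each measured HMG gene on each array, as log2(signal + 16) minus the mean of the control arrays of that gene. Hmga2 (squares) is lowest on both macroH2A2 shRNA arrays, Hmgb2 (dark circles) is low on the replicate 2 arrays of both macroH2A shRNA lines, and Hmgb3, Hmgn1 and Hmgn3 stay close to 0.

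The profile of the brightest Hmga2 probe set was compared with that of 12087 other tested genes, each at its brightest probe set, by the root mean square difference of log2(signal + 16) after centring each on its mean over the 6 arrays. The nearest gene was Akap12, a scaffold protein of protein kinase A, with a difference of 0.136 log2 units, where the median over all genes was 0.538. It read 84.0 and 119.5 on the macroH2A1 shRNA arrays, 61.8 and 48.2 on the macroH2A2 shRNA arrays, and 117.5 and 122.1 on the control arrays. Next came Fam149a at 0.192, Dram1, a lysosomal protein of the p53 response, at 0.205, Wap, a whey protein, at 0.225, and Acp1, a small tyrosine phosphatase, at 0.229. Dram1 and Wap were dim, reading at most 25.4 and 20.8 on any array. The log2 fold changes of these 5 genes for macroH2A2 shRNA minus control lay between -1.23 and -0.62, and those for macroH2A1 shRNA minus control between -0.22 and -0.03. The genes were picked for this likeness over 6 arrays, so it is a description.

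**Figure D4:**
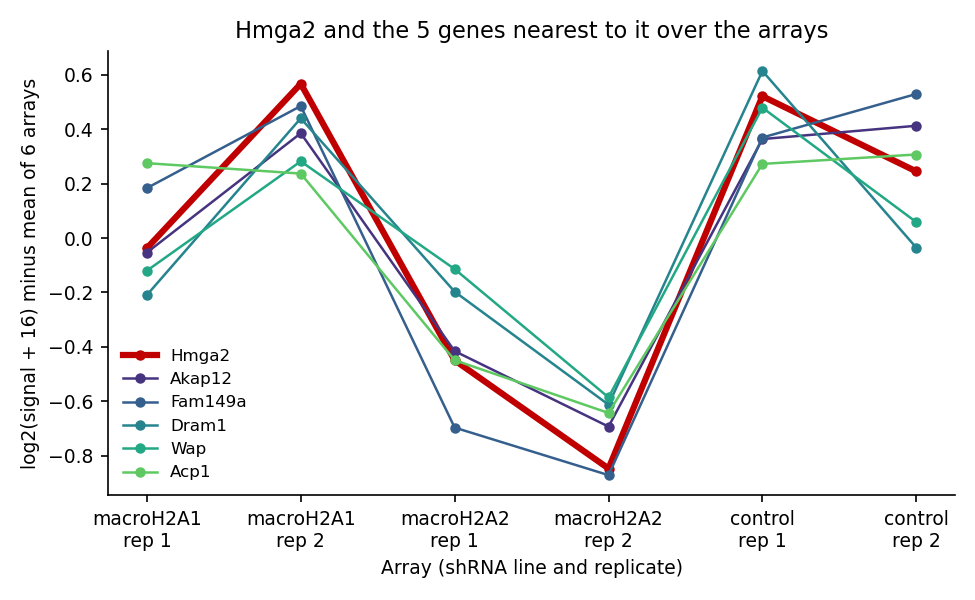
log2(signal + 16) minus its mean over 6 arrays, for Hmga2 (thick line) and the 5 tested genes with the smallest root mean square difference from it, by array. Each of the 6 profiles is lowest on the macroH2A2 shRNA replicate 2 array, and the differences from Hmga2 range from 0.136 for Akap12 to 0.229 for Acp1.

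The replicate 1 arrays were then compared with the replicate 2 arrays, with the line as covariate, since this comparison was not used in listing the genes. The replicate numbers come from the labels, and the labels do not say what else separates the replicate sets. Hmgb2 was higher on the replicate 1 arrays on its brightest probe set, 1437313_x_at, at 3013 ± 103 in replicate 1 and 1962 ± 417.5 in replicate 2 (mean ± SD, n = 3 arrays each). The log2 difference was 0.64 (SE 0.12, limma adjusted p 0.00721), positive in 3 of 3 lines, at 0.85 on the macroH2A1 shRNA arrays, 0.81 on the macroH2A2 shRNA arrays and 0.24 on the control arrays. Over the other settings that kept all arrays the limma adjusted p lay between 0.00741 and 0.0995. The call was lost with arrays centred on their median (0.39, limma adjusted p 0.0995) and without the filter (limma adjusted p 0.0687). Leaving out 1 array, which drops its line from this comparison, the difference lay between 0.53 and 0.83.

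The other Hmgb2 probe sets differed by 0.19 (SE 0.10, limma adjusted p 0.262) for 1452534_a_at and 0.31 (SE 0.15, limma adjusted p 0.250) for 1438307_at, and neither passed. Hmgb3 differed by 0.19 (SE 0.10, limma adjusted p 0.285), with the 3 replicate 1 arrays above the 3 replicate 2 arrays. Hmga2, Hmgn1 and Hmgn3 had limma adjusted p values of 0.17 or above on all their tested probe sets, but 1422495_a_at of Hmgn1 passed with arrays centred on their median (-0.38, limma adjusted p 0.0402), against -0.13 (limma adjusted p 0.314) without centring. In all, 1 of 13 member probe sets passed, against 9.85% of all tested probe sets (8.75% higher and 1.1% lower in replicate 1), so the share of members was near the background. Of all calls 88.8% were higher in replicate 1, against 32.9% with arrays centred on their median. The replicate 1 arrays lay above all replicate 2 arrays for 4 of 13 (2 of Hmgb2, Hmgb3 and the dim one of Hmga2), against 19.5%, and below all of them for 1 of 13 (1422495_a_at of Hmgn1), against 7.19%.

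**Figure D5:**
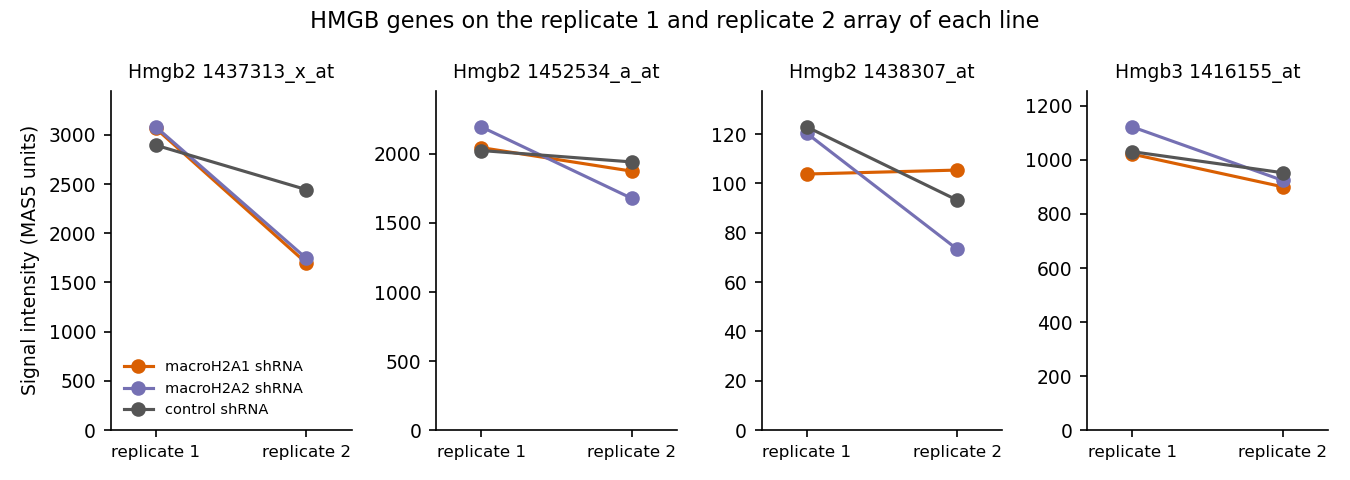
Signal intensity (linear axes from 0, 1 axis per probe set) of the 3 Hmgb2 probe sets and the Hmgb3 probe set on the replicate 1 and replicate 2 array of each line, joined by line. On 1437313_x_at the macroH2A1 and macroH2A2 shRNA lines read 3064.7 and 3080.1 in replicate 1, and 1697.1 and 1744.7 in replicate 2, and the same lines differ less on the other probe sets.

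Further genes were described from lists, each gene at its brightest probe set. In every list 0 tested genes had a limma adjusted p under 0.05 in any shRNA comparison, with or without the replicate block. Over all tested probe sets the median log2 fold change was -0.03 for macroH2A1 shRNA and -0.03 for macroH2A2 shRNA against control. Of 22 tested genes for other HMG or HMG-box proteins, 14 were higher and 8 lower in each macroH2A shRNA line, with medians of 0.04 and 0.07, where 44.4% and 44.3% of all tested probe sets were higher. At an unadjusted p under 0.05 there were 3 for macroH2A1 shRNA and 2 for macroH2A2 shRNA, with or without the block, where all tested probe sets gave 4.4% and 3.98% without it and 8.84% and 8.98% with it. Sox4, a developmental transcription factor, read 2358.3 and 2386.4 on the macroH2A1 shRNA arrays, 2177.8 and 2670.7 on the macroH2A2 shRNA arrays, and 1805.3 and 1857.0 on the control arrays. Tcf7l1, a repressor in the Wnt pathway, read 295.9 and 318.2 on the macroH2A1 shRNA arrays, 141.1 and 149.1 on the macroH2A2 shRNA arrays, and 245.1 and 200.9 on the control arrays, and Sox9, a factor of the neural crest, had log2 fold changes of -0.69 (SE 0.25) and -0.22 (SE 0.25). Hmgn5, another HMGN gene, had log2 fold changes of -0.09 and -0.04 (SE 0.14).

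Genes around the let-7 control of Hmga2 were described next. Lin28a and Lin28b, whose proteins block let-7 maturation, stayed at or below 9.6 on all arrays and were not tested. Of the 8 tested genes of this list 6 were higher and 2 lower in each macroH2A shRNA line. Their medians were 0.13 for macroH2A1 shRNA and 0.10 for macroH2A2 shRNA, and 44.4% and 44.3% of all tested probe sets were higher. At an unadjusted p under 0.05 there were 0 in either line, with or without the block. Nras, a let-7 target and oncogene, had log2 fold changes of 0.20 and 0.20 (SE 0.14), Myc had 0.18 and -0.02 (SE 0.16), and Drosha, the nuclear microRNA processor, had 0.17 and 0.16 (SE 0.17).

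Of 10 tested genes described as targets or partners of HMGA2, 6 were lower in the macroH2A1 shRNA line (median -0.04) and 9 for macroH2A2 shRNA (median -0.14). Among all tested probe sets 55.6% and 55.7% were lower. At a limma unadjusted p under 0.05 there were 0 for macroH2A1 shRNA and 1 for macroH2A2 shRNA, where the background was 4.4% and 3.98%. The replicate block raised these counts to 1 and 3, and the background to 8.84% and 8.98%. A link of these genes to the Hmga2 difference was not tested. Snai2, a transcription factor of the neural crest, read 475.1 and 518.3 on the macroH2A1 shRNA arrays, 389.6 and 526.9 on the macroH2A2 shRNA arrays, and 557.2 and 744.6 on the control arrays. Cdkn1a, the cell cycle inhibitor p21, read 640.5 and 1245.6 on the macroH2A1 shRNA arrays, 479.1 and 670.7 on the macroH2A2 shRNA arrays, and 852.6 and 841.6 on the control arrays. Ccna2, cyclin A2, was the 1 gene higher in the macroH2A2 shRNA line, at 0.27 (SE 0.13), and 0.01 (SE 0.13) in the macroH2A1 shRNA line.

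Receptors and partners of HMGB1 outside the cell were lower in 4 of 7 cases in each line (medians -0.10 and -0.05), with 0 and 1 at an unadjusted p under 0.05, with or without the block. Tlr2, a Toll-like receptor, had log2 fold changes of -0.41 and -0.68 (SE 0.28), Ly96, the partner of Tlr4, had -0.26 and -0.16 (SE 0.17), and Myd88, an adaptor of those receptors, had -0.16 and -0.05 (SE 0.16). Among linker histones 2 of 3 on the array were tested, with medians of -0.38 and -0.26. At an unadjusted p under 0.05 there were 0 in either comparison, and with the block 1 in each, against the same shares of all tested probe sets. H1f2 read 511.5 and 965.2 on the macroH2A1 shRNA arrays, 456.1 and 1376.0 on the macroH2A2 shRNA arrays, and 1073.7 and 1263.7 on the control arrays. It was lower on the replicate 1 arrays in all 3 lines (log2 difference -0.90, limma adjusted p 0.0143). H1f10 had log2 fold changes of -0.04 and 0.02 (SE 0.23).

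Proliferation genes, whose RNA is known to follow Hmgb2 in dividing cells, had medians near 0 in both lines. Of 18 tested, 11 were higher and 7 lower in the macroH2A1 shRNA line (median 0.01). In the macroH2A2 shRNA line 10 were higher and 8 lower (median 0.02). Of all tested probe sets 44.4% and 44.3% were higher. At an unadjusted p under 0.05 there were 0 of the 18 in either line, with or without the block. Aurkb, a mitotic kinase, had log2 fold changes of -0.23 and -0.14 (SE 0.15), and Bub1, a spindle checkpoint kinase, had -0.13 and -0.21 (SE 0.15). Between the replicate sets 1 of the 18 passed, against 9.85% of all tested probe sets. It was Tyms, a nucleotide synthesis enzyme, higher in replicate 1 by 0.61 (limma adjusted p 0.0453). The median was 0.04 over the list and 0.06 over all tested probe sets. The part of proliferation genes in the Hmgb2 difference between the replicate sets was not tested.

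Of the 10 melanocyte markers tested, 8 were higher and 2 lower in each macroH2A shRNA line, with medians of 0.24 for macroH2A1 shRNA and 0.09 for macroH2A2 shRNA. At an unadjusted p under 0.05 there were 2 and 0, and with the block 6 and 1. Tyr, tyrosinase of melanin synthesis, had log2 fold changes of -0.44 and -0.23 (SE 0.13), Oca2, a melanosome transporter, had 0.54 and 0.06 (SE 0.17), and Slc45a2, another melanosome transporter, had -0.04 and -0.34 (SE 0.15). The fibroblast list had medians of -0.46 and -0.28. It had 1 and 1 at an unadjusted p under 0.05, and with the block 2 and 1, against the same shares of all tested probe sets. The other marker lists had 0 at an unadjusted p under 0.05, with or without the block. They held, among tested genes, Cd68 (-0.18 and -0.33), Csf1r (0.03 and -0.19) and Adgre1 (0.002 and -0.14) of leukocytes, Krt5 (-0.26 and 0.02) and Cdh1 (0.12 and 0.16) of keratinocytes, and Kdr (-0.01 and 0.06) of endothelial cells, all as log2 fold changes for macroH2A1 and macroH2A2 shRNA against control.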

How the data were processed

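The authors deposited 1 signal intensity per probe set and array on a linear scale, which per the submitters' processing notes came from MAS5, of a version that the notes do not name. The values show that each array was scaled to a common trimmed mean, which removes any change in total signal. Of 45101 probe sets 64 control probe sets were left out. The annotation of the platform named 34945 of the others with 1 symbol, 932 with several and 9160 with none.

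Values were analysed as log2(signal + 16) for probe sets whose mean signal reached the 40th percentile (10.4), which left 27025. All 6 arrays entered 1 fit (limma 3.58.1, R 4.3.3, moderated with a mean-variance trend) with 3 group means, 3 residual and 4.90 prior degrees of freedom, and a Benjamini-Hochberg threshold of 0.05 over all tested probe sets. The replicate comparison used the same model with the replicate number added, with 2 residual and 9.09 prior degrees of freedom. The scripts were tested on simulated data. Differences between replicate 1 and replicate 2 correlated between lines across tested probe sets. The correlations were 0.576 (macroH2A1 shRNA and control), 0.372 (macroH2A2 shRNA and control) and 0.415 (macroH2A2 and macroH2A1 shRNA), all over 0.1. The numbers from the labels were therefore taken to pair the arrays, and blocked counts stand beside those they change. Every SE given for an shRNA comparison is from the fit without the block. Against control, the block lowered the SE at the brightest probe set from 0.319 to 0.144 for Hmgb2 and from 0.25 to 0.225 for Hmga2.

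The members, lists and comparisons were chosen with earlier results of these data known. Named are all members and the 3 genes of each list with the smallest p in either comparison with control, and the 5 genes nearest in profile to Hmga2. Hmgn5, Lin28a, Lin28b, Tyms and the dim fibroblast markers lie outside this rule and were named after their values were seen. Alternatives were the replicate block, quantile normalization, median centring, pseudocounts of 1 and 64, no filter, a 60th percentile filter, other probe sets of a gene, and leaving out each array.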

Additional observations from a re-analysis of the deposited data

Results flagged for a closer look

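The pattern sought was both differences from control within replicates positive in 1 macroH2A shRNA line and negative in the other. Among 41 probe sets of members and named list genes, 2 showed it. Its share among all tested probe sets is not given, so nothing is read from this count. Tcf7l1 differed from control by 0.26 and 0.62 (log2) for macroH2A1 shRNA and by -0.73 and -0.39 for macroH2A2 shRNA, and its macroH2A2 minus macroH2A1 difference was -1.003. Krt5, a keratinocyte marker reading at most 26.0 on any array, differed by -0.38 and -0.14 in the macroH2A1 shRNA line and by 0.003 and 0.04 in the macroH2A2 shRNA line, a difference of 0.28 between the lines. These were picked by their signs and the difference was not tested on its own; in the limma fit over all probe sets neither had an adjusted p under 0.05 between the lines. None of the 13 tested HMG probe sets showed this pattern. The untested Hmgn1 probe set 1422496_at, which is not among the 2 found, had these signs. It differed from control by -0.43 and -0.06 on the macroH2A1 shRNA arrays, but by 0.22 and 0.16 on those of macroH2A2 shRNA. Its signal was at most 9.8 on any array, below the filter, so nothing is read from it.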

How the results depend on the processing

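With 2 arrays per line the main fit called 0 of 27025 tested probe sets in each shRNA comparison. The Macroh2a1 probe set, lower on the macroH2A1 shRNA arrays, was thus not called either. Large differences could be missed as well as small ones, and a count of 0 does not show that lines were alike. Hmga2 at its brightest probe set stayed lower for macroH2A2 shRNA minus control under the other normalizations, pseudocounts and filters and without any single array (-1.23 to -0.83 leaving out arrays), and the exception was its dim probe set (0.036, and 0.099 for macroH2A2 shRNA minus macroH2A1 shRNA). Its difference from the other HMG genes ranged, leaving out 1 array, from -0.57 to 0.31 for macroH2A1 shRNA minus control and from -1.36 to -0.48 for macroH2A2 shRNA minus macroH2A1 shRNA. The lone array of a line was then assumed to vary like the others. With the replicate block the probe sets past the threshold numbered 52 for macroH2A1 shRNA and 39 for macroH2A2 shRNA against control and 1 between the macroH2A shRNA lines, with 0 each without it, and the blocked HMG count for macroH2A2 shRNA against control was 1. The block changed no other call on an HMG probe set. In blocked fits chosen after seeing the data that HMG count was 1 with median centring, where 40 of all tested probe sets passed. It was also 1 with pseudocounts of 1 (36 of all) or 64 (42 of all) and the 60th percentile filter (35 of all). It was 0 after quantile normalization (16 of all) and without the filter, where 0 of all probe sets passed. Nothing is read from these counts. Leaving out an array left a line with 1 array, so those blocked fits cannot decide the call and their counts are not given. Without the block, 3 probe sets passed for macroH2A1 shRNA minus control with arrays centred on their median. For replicate 1 minus replicate 2, 2661 probe sets passed, 1085 after quantile normalization, 301 without the filter (0 of them HMG), 1182 with the 60th percentile filter, and 1320 to 3942 leaving out arrays (at most 1394 without either macroH2A1 shRNA or either control array). Centring on the median moved the median of all tested probe sets in that comparison to -0.19, against 0.06, and turned the sign of 4 members that had not passed, Hmga2 (-0.22), Hmgb3 (-0.059), Hmgn1 (-0.24) and Hmgn3 (-0.14). Leaving out either array of a line removed that line from the replicate difference, since its other array then had no partner. For Hmga2 the difference was -0.10 without control, 0.34 without macroH2A1 shRNA and -0.16 without macroH2A2 shRNA. For Hmgn1 it was 0.051, 0.008 and -0.04. The cause of these changes was not tested.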
